A study of Mus musculus with 2 samples.

Results

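Enzymes that write or erase methyl groups on histones were measured in CD45-negative live cells sorted from Py8119 mammary tumours grown in mice. The genes were taken by name from the deposited expression table: the KDM, KMT2, KMT5, SETD, SMYD, PRMT and PRDM families, the methyltransferases Ehmt1, Ehmt2, Suv39h2, Ezh1, Ezh2, Nsd1 to Nsd3, Dot1l and Ash1l, and the subunits Eed, Suz12, Ash2l and Wdr5, on autosomes only. This gave 65 of the 12707 listed genes. A further 4 genes with matching names lie on the sex chromosomes and were not counted.

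There were 2 libraries, 1 from tumours in mice with Mtdh knocked out (KO host) and 1 from tumours in mice with wild-type Mtdh (WT host). Py8119 cells are a mammary carcinoma line established from an MMTV-PyMT mouse. The injected tumour cells were wild type for Mtdh in both, so the libraries differ in the host. The sources used here do not give the strain, age or sex of the hosts or how many tumours entered each library, and the design text speaks of paired samples without saying how they were paired. With 1 library per host there is no replicate check, no test was run, and every difference below describes this pair of libraries.

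Histone methyltransferases move methyl groups from S-adenosylmethionine to lysine or arginine side chains, and the position decides how the mark is read. Methylation of H3K4 (lysine 4 of histone H3) marks promoters and enhancers, H3K36 and H3K79 methylation mark transcribed genes, and H3K9, H3K27 and H4K20 methylation are tied to silent or compacted chromatin. Demethylases remove the groups, the KDM1 enzymes by an amine oxidase reaction and the JmjC enzymes with iron and 2-oxoglutarate. In breast tumours several of these enzymes, among them EZH2, KMT2C, KMT2D and KDM5B, are known as altered or as regulators of cell identity.

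The deposited values are log2(FPKM + 1), where FPKM counts fragments per kilobase of genomic span, scaled to the library total. Many of these genes are long, with a median span of 44019 bases against 24254 bases over all listed genes, and 23 of the 65 were under an FPKM of 1 in both libraries. There the added 1 hides most of a difference. Differences are therefore given as ratios of RPM (reads per 1000000), recovered from the same values, KO host over WT host, with a 95% exact binomial counting interval that covers counting error only. The libraries held 23381865 recovered reads (KO host) and 26069376 (WT host). Ratios were taken for genes with 100 reads or more over both libraries and a value above 0 in each, which 62 of the 65 enzymes and 10648 of all genes met. No molecular identifiers are recorded, so reads may repeat a molecule. The span of 11 of the 65 enzymes overlaps another listed gene, and 23 have reads that are not whole numbers, which the authors' counting can have split between genes.

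As a group the enzymes took the same share of the reads in both libraries, 0.609% in the KO host library and 0.608% in the WT host library, or 6090 and 6082 RPM in sum. Single enzymes differed in both directions. By a rule of 2-fold or more, 4 of 62 were higher in the KO host library (Smyd3, Dot1l, Kdm6b and Prdm10), where 8.4% of all genes under the same rule were higher. In the other direction 6 were lower (Setd4, Kdm4c, Kmt5a, Setd6, Kdm4b and Setd1a), where 11.3% of all genes were lower. At 1.5-fold or more the counts were 7 higher, against a background of 15.7%, and 9 lower, against 20.8%. All 4 shares of the enzymes (6.45%, 9.68%, 11.3% and 14.5%) were under those of all genes, which include more genes of low depth, and the order differed by depth. The median log2 read ratio was -0.12 over the enzymes (quartiles -0.43 and 0.22) and -0.063 over all genes (quartiles -0.47 and 0.32), with 23 enzymes above 0 and 39 below (37.1% and 62.9%), against 45.6% and 54.4% of all genes. The counting interval lay above 1 for 32.3% of the enzymes and below 1 for 53.2%, against 36.7% and 45.5% of all genes.

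**Figure D1:**
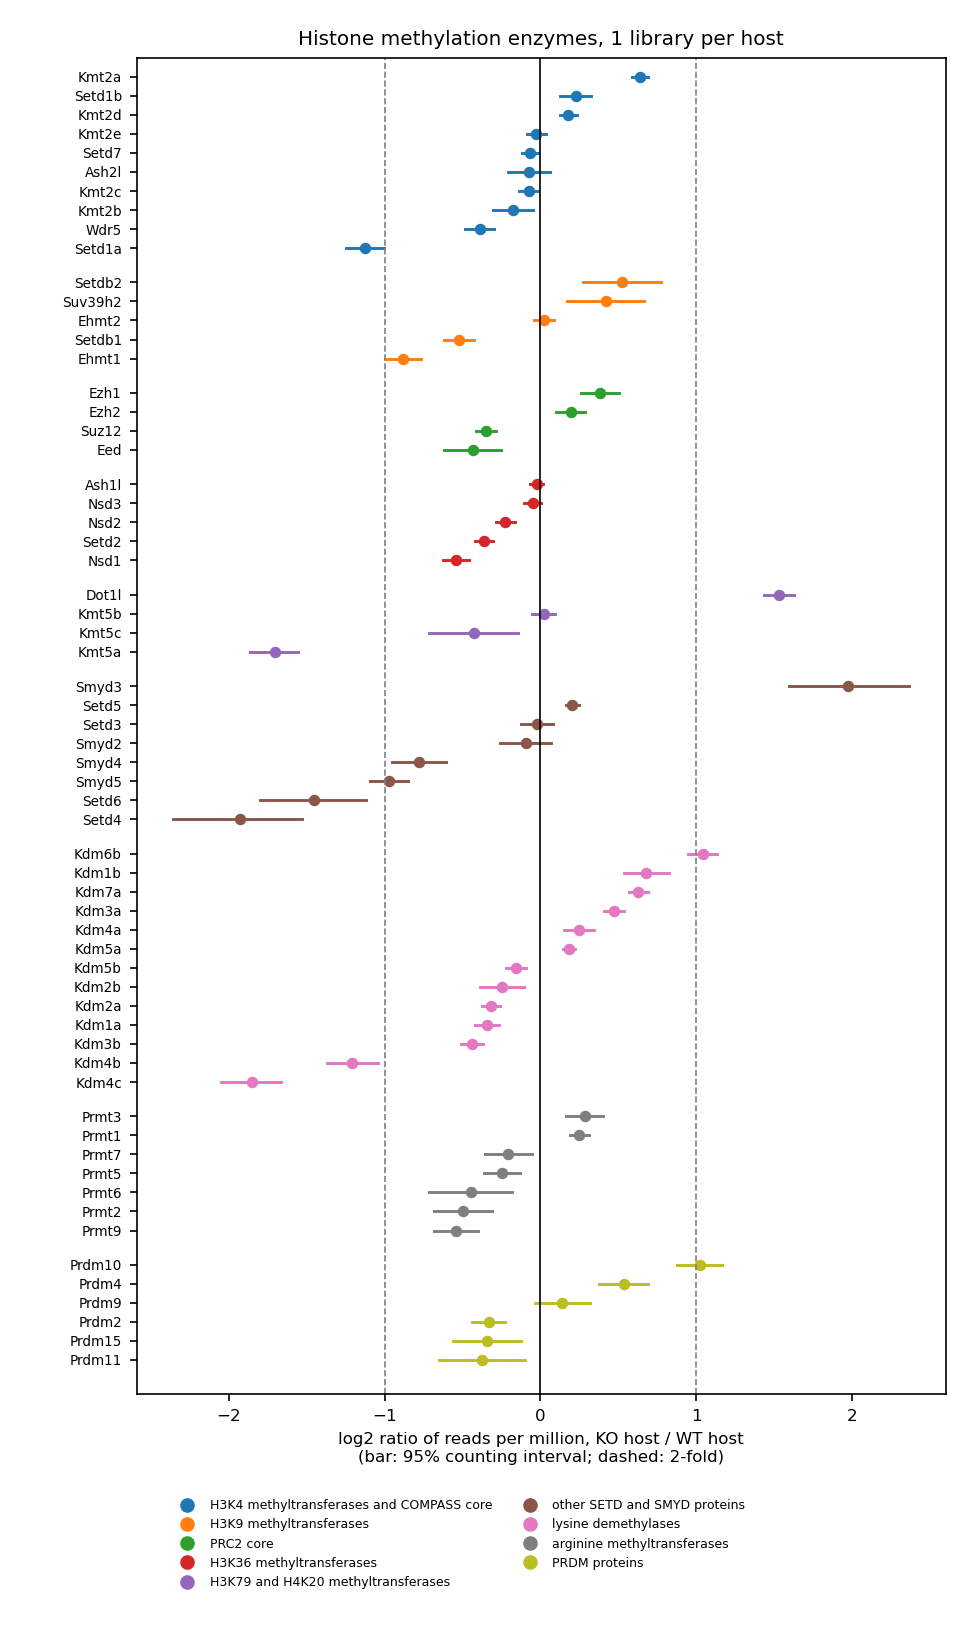
Each point is the log2 ratio of RPM, KO host over WT host, of 1 enzyme with 100 reads or more, grouped and coloured by substrate class; bars are 95% counting intervals and dashed lines mark 2-fold. Most of the 62 points lie between the dashed lines, with 4 past the line on the right and 6 past the line on the left.

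The size of a difference has to be read against depth. Among all genes with 100 to 1000 reads, 17.5% were 2-fold higher and 23.4% were 2-fold lower, so 2-fold ratios were common at such depth. Of the enzymes past 2-fold, Smyd3, Setd4 and Setd6 lie in that range. Among genes with 1000 to 10000 reads, 3.03% were 2-fold higher and 4.58% were 2-fold lower. Of the 46 enzymes in that range, 3 were higher (Dot1l, Kdm6b and Prdm10) and 4 were lower (Kdm4c, Kmt5a, Kdm4b and Setd1a), or 6.52% and 8.7%, so at this depth the enzymes' shares were above those of all genes, on counts of 3 and 4. Of the 9 enzymes with 100 to 1000 reads, 11.1% were higher and 22.2% lower. None of the 7 enzymes over 10000 reads passed 2-fold, where 1.93% of all genes were higher and 0.704% were lower.

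**Figure D2:**
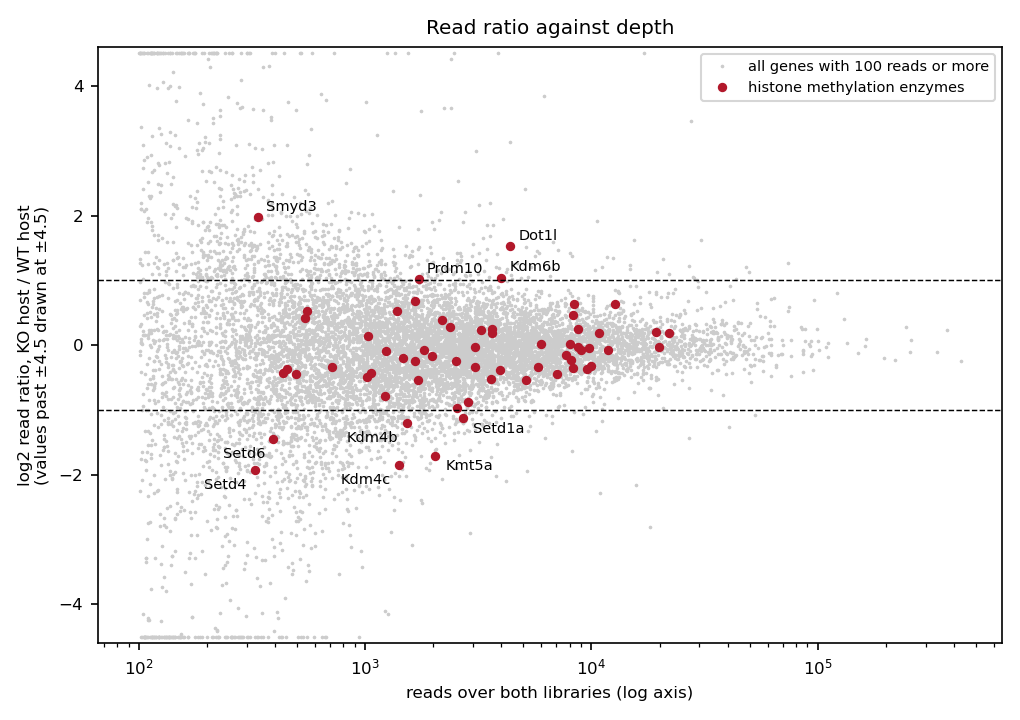
The log2 read ratio, KO host over WT host, is plotted against the reads of a gene over both libraries on a log axis; grey points are the 10648 genes with 100 reads or more, red points the 62 enzymes, and dashed lines mark 2-fold. The spread of grey points narrows with depth, and Dot1l, Kmt5a and Kdm4c lie at its edge for their depth, while Smyd3, Setd4 and Setd6 lie where the spread is wide.

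The enzymes of H3K79 and H4K20 methylation held the highest ratio among enzymes with 1000 reads or more, that of Dot1l, and 1 of the lowest, that of Kmt5a. Dot1l, the enzyme that methylates H3K79 (ENSMUSG00000061589, chromosome 10, 80591040 to 80631296, plus strand, in the files' coordinates, with mm39 named in the submitters' notes), had 3154 reads in the KO host library and 1215 in the WT host library, 2.89-fold higher (interval 2.71 to 3.09). Its deposited FPKM was 3.35 against 1.16, and it is 1 of 2 enzymes that also differed by 1 or more on the deposited log2 scale. Kmt5a, which places the first methyl group on H4K20 and is needed for chromosome compaction, is the other (chromosome 5, 124577993 to 124600372, plus strand). It had 439 reads in the KO host library and 1597 in the WT host library, 3.26-fold lower (interval 2.93 to 3.63). On the deposited scale 39 of the 65 enzymes had a mean of 1 or more, and Dot1l made 1 higher and Kmt5a 1 lower, against 2.31% and 2.64% of all genes. Kmt5b and Kmt5c extend the mark that Kmt5a begins. Kmt5b had 2863 reads in the KO host library against 3140 in the WT host library (ratio 1.02). Kmt5c was lower, as Kmt5a was, but by less than 1.5-fold, with 173 against 259 reads (ratio 0.745, interval 0.611 to 0.906).

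Promoter windows from RefSeq (build GRCm38.p6) were available for 50 of the 65 enzymes, in 65 windows. The enzymes past 2-fold that have a single window are shown here, 1 that was higher and 3 that were lower, so that the starts of genes that differed in either direction can be seen side by side. Each line gives the 250 bases before the annotated start, 5′ to 3′ on the gene's strand, at chr10:80754953-80755202 (plus) for Dot1l, chr7:127777139-127777388 (plus) for Setd1a, chr16:93603816-93604065 (minus) for Setd4 and chr8:95715663-95715912 (plus) for Setd6. Capitals mark matches on either strand to the AP-1 motif TGANTCA, the core ACGTG of the hypoxia response element, the CCAAT box or the GC box GGGCGG.
Dot1l: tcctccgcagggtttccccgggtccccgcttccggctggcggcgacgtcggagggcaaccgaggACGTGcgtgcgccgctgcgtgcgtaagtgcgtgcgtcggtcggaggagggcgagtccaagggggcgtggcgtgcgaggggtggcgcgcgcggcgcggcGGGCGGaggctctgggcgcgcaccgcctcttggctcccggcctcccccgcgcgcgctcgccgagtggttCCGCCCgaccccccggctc
Setd1a: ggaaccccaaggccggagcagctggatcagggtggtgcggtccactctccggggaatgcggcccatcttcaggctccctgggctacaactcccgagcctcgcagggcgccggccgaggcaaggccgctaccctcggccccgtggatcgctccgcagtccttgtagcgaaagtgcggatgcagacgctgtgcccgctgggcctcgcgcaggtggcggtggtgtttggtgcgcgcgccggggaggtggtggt
Setd4: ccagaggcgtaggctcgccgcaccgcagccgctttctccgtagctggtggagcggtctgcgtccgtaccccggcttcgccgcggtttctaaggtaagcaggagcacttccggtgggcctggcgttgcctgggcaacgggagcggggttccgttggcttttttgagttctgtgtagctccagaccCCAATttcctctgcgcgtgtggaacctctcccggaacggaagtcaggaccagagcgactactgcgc
Setd6: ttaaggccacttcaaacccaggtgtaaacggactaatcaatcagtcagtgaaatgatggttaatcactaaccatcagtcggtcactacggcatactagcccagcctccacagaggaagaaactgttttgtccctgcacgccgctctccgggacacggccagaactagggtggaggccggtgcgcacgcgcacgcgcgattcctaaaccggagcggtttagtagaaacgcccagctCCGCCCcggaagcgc
The Dot1l window held 1 ACGTG and 2 GC boxes, with a GC content of 78.4% over the printed bases. The Setd4 window held 1 CCAAT box, the Setd6 window 1 GC box, and the Setd1a window none of the 4 motifs. The shares below were counted over whole windows, which run on past the 250 bases printed, for Dot1l to position 80755252. The GC box stood in 64.6% of the enzymes' windows against 32.7% of all 32851 windows, and CCAAT in 44.6% against 33.9%. Some enzymes have several windows, which can overlap, and 32 of the 50 enzymes held a GC box in any window. The set of all windows was not matched to the enzymes in GC content or expression. ACGTG was in 13 of the enzymes' 65 windows, against 16.6% of all windows. TGANTCA was found in 4.62% against 6.75%. These are matches of letters in a window and describe no binding.

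Enzymes of H3K4 methylation mostly had ratios near 1, with exceptions at both ends. Setd1a, Setd1b and Kmt2a to Kmt2d work in COMPASS complexes, which share Wdr5 and Ash2l as core subunits. Setd1a, a catalytic subunit of the complexes that place most promoter H3K4 trimethylation, had 787 reads in the KO host library and 1915 in the WT host library, 2.18-fold lower (interval 2.01 to 2.37). Its span overlaps Gm49388 on the same strand, and its reads are not whole numbers, so some reads may be shared. Its paralog Setd1b had 1661 against 1582 reads (ratio 1.17, interval 1.09 to 1.25). Per kilobase of exon, Setd1a made up 39.5% of the pair in the KO host library and 62.6% in the WT host library, so the order of the paralogs was turned round. Kmt2a (MLL1), which acts at Hox and other developmental genes, had 7430 against 5306 reads, 1.56-fold higher (interval 1.51 to 1.62). Of its relatives, Kmt2b had 876 against 1101 reads (ratio 0.887), Kmt2c 4137 against 4858 (0.950, interval 0.911 to 0.990), Kmt2d 5425 against 5336 (1.13) and Kmt2e, which lacks catalytic activity, 4070 against 4619 (0.982). Setd7, which places a single methyl group on H3K4 and on many other proteins, had 5438 against 6351 reads (0.955). The shared subunits counted among the 65 enzymes were Wdr5 with 1602 against 2340 reads (0.763, interval 0.716 to 0.814) and Ash2l with 834 against 979 (0.950). Rbbp5 and Dpy30, placed here with the COMPASS accessory genes, had 804 against 1191 reads (0.753) and 54 against 191 (0.315). The class summed to 1380 RPM in the KO host library and 1319 RPM in the WT host library.

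The H3K9 enzymes split by paralog as well. Ehmt1 (GLP), which works as a partner of Ehmt2 (G9a) in H3K9 dimethylation, had 935 reads in the KO host library and 1920 in the WT host library, 1.84-fold lower (interval 1.70 to 1.99). Ehmt2 had 3837 against 4204 reads, a ratio of 1.02 (interval 0.974 to 1.06). Setdb1, which silences retroelements with Trim28, had 1378 against 2203 reads (ratio 0.697, interval 0.652 to 0.746). Its span overlaps Cers2 on the opposite strand, and the sources used here do not say whether strand was used in counting. Setdb2 was at 311 against 241 reads (1.44, interval 1.21 to 1.71) and Suv39h2, an enzyme of pericentric heterochromatin, at 295.3 against 246 (1.34, interval 1.13 to 1.59). Both lie in the range of 100 to 1000 reads, where such ratios are common.

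PRC2, the complex that methylates H3K27, showed no member past 1.5-fold, where 15.7% of all genes were higher by this rule and 20.8% lower. Its catalytic subunits were slightly higher and its core partners slightly lower. Ezh2 had 1840 reads in the KO host library and 1792 in the WT host library (ratio 1.14, interval 1.07 to 1.22), and Ezh1 1176 against 1005 (1.30, interval 1.20 to 1.42). Suz12 had 3443 against 4880 reads (0.787, interval 0.753 to 0.822) and Eed 422 against 636 (0.740, interval 0.653 to 0.838). Per kilobase of exon, Ezh2 made up 76.3% of the Ezh pair in the KO host library and 78.6% in the WT host library.

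All 5 H3K36 methyltransferases had ratios under 1, as did 54.4% of all genes and 62.9% of the 62 enzymes. None passed 1.5-fold, which 20.8% of all genes did in the lower direction. Nsd1, which places H3K36 dimethylation, was farthest from 1, with 1969 reads in the KO host library against 3192 in the WT host library (ratio 0.688, interval 0.650 to 0.728). Setd2, the enzyme of H3K36 trimethylation behind elongating RNA polymerase II, had 3923 against 5622 reads (0.778, interval 0.747 to 0.811). Nsd2 had 3536 against 4603 reads (0.857), Nsd3 4529 against 5226 (0.966) and Ash1l 9291 against 10520 (0.985). The intervals of Nsd3 (0.928 to 1.01) and Ash1l (0.957 to 1.01) hold 1.

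Among the lysine demethylases the KDM4 enzymes stood apart from each other. Kdm4c and Kdm4b, JmjC enzymes that remove methyl groups from H3K9 and H3K36, were both lower in the KO host library. Kdm4c (chromosome 4, 74160734 to 74324098, plus strand) had 281 reads in the KO host library and 1132 in the WT host library, 3.61-fold lower (interval 3.17 to 4.13), and Kdm4b (chromosome 17, 56633062 to 56709871, plus strand) 427 against 1098, 2.31-fold lower (interval 2.06 to 2.59). Kdm4a, with the same substrates, had 1878 against 1763 reads (ratio 1.19, interval 1.11 to 1.27). Per kilobase of exon, the 3 genes summed to 22.5 in the KO host library and 32.3 in the WT host library, and Kdm4a made up 70.5% of that sum against 41.4%. On the deposited log2 scale Kdm4c differed by -0.24 and Kdm4b by -0.32, since both genes are long and under an FPKM of 1 in both libraries.

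Kdm6b (JMJD3), the H3K27 demethylase known to be induced by inflammatory signals in macrophages, was the demethylase with the highest ratio (chromosome 11, 69289334 to 69304502, minus strand). It had 2592 reads in the KO host library and 1403 in the WT host library, 2.06-fold higher (interval 1.93 to 2.20), with a deposited FPKM of 7.31 against 3.55. The 5 macrophage markers set beside it summed to 207 RPM in the KO host library and 164 RPM in the WT host library. Lyz2 made up most of each sum, with 148 against 134 RPM. Mpeg1 had 952 against 378 reads and Cd68 70 against 33, while Csf1r had 195 against 198 and Adgre1 153 against 157. The part of macrophages in the Kdm6b level was not tested. Kdm1b (LSD2), an amine oxidase for H3K4, had 979 against 681 reads (1.60-fold higher, interval 1.45 to 1.77), and its span overlaps Tpmt and Dek on the opposite strand. Kdm7a, which acts on H3K9 and H3K27, had 4868 against 3505 reads (1.55-fold higher, interval 1.48 to 1.62).

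The remaining demethylases lay within 1.5-fold. Kdm3a, an H3K9 demethylase known as a hypoxia-inducible gene, had 4605 reads in the KO host library against 3699 in the WT host library (ratio 1.39, interval 1.33 to 1.45), while its paralog Kdm3b had 2802 against 4230 (0.739, interval 0.704 to 0.775). Kdm3a made up 69.5% of that pair per kilobase of exon in the KO host library and 54.8% in the WT host library. Kdm1a (LSD1), the catalytic subunit of the CoREST complex, had 2407 against 3397 reads (0.790, interval 0.750 to 0.833). Kdm5a, an H3K4 demethylase and the enzyme with the most reads of all 62, had 11109 against 10903 (1.14, interval 1.11 to 1.17), and Kdm5b 3436 against 4261 (0.899). Kdm2a, an H3K36 demethylase that binds CpG islands, had 4187 against 5816 reads (0.803), and Kdm2b 717 against 946 (0.845). Kdm8 (JMJD5) was listed at 0 in the KO host library and had 92 reads in the WT host library, so no ratio is given. Over all listed genes, 413 were at 0 in the KO host library and 511 in the WT host library.

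Arginine methyltransferases stayed within 1.5-fold in all 7 cases, as most genes did. Over all genes 15.7% were past 1.5-fold higher and 20.8% lower. Prmt1, which makes most asymmetric dimethylarginine in cells, had 4498 reads in the KO host library and 4219 in the WT host library (ratio 1.19, interval 1.14 to 1.24). Prmt3, a cytosolic enzyme that modifies a ribosomal protein, had 1232 against 1127 (1.22, interval 1.12 to 1.32). The other 5 had ratios under 1, as did 54.4% of all genes. Prmt5, the main enzyme of symmetric dimethylation, had 1081 against 1428 reads (0.844, interval 0.779 to 0.914). Prmt9 had 656 against 1063 (0.687, interval 0.623 to 0.759), Prmt2 397 against 624 (0.709, interval 0.624 to 0.806), Prmt6 196.9 against 299.2 (0.734) and Prmt7 641 against 824 (0.867).

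The other SETD and SMYD proteins held 4 members past 1.5-fold in the lower direction and 1 in the higher, and several of them act on proteins other than histones. Over all genes 20.8% were past 1.5-fold lower and 15.7% higher, and Setd4, Setd6 and Smyd3 lie at 100 to 1000 reads, where 23.4% were 2-fold lower and 17.5% higher. Setd6, which methylates the NF-kB subunit RelA, had 97 reads in the KO host library and 296 in the WT host library, 2.74-fold lower (interval 2.17 to 3.48). Setd4 had 62.3 against 263.7 reads, 3.80-fold lower (interval 2.89 to 5.12), and its reads are not whole numbers. Smyd5 had 800 against 1750 reads, 1.96-fold lower (interval 1.80 to 2.14), just short of 2-fold, and Smyd4 419 against 802, 1.72-fold lower (interval 1.52 to 1.94). Smyd3, reported to methylate histones and the kinase MAP3K2, had 261 against 74 reads, 3.93-fold higher (interval 3.03 to 5.16). Its span of 566082 bases is the longest of the group, and its deposited log2 values differed by 0.021. Setd5, a SET domain protein linked to neurodevelopment, had 9813 against 9484 reads (1.15), Setd3, which methylates a histidine of actin, 1427 against 1616 (0.985), and Smyd2, which methylates p53 among other proteins, 563 against 669 (0.938).

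PRDM proteins carry a PR domain related to the SET domain, with zinc fingers, and many act as DNA-binding factors. Of the 8 listed, 6 had 100 reads or more. Prdm10 had 1111 reads in the KO host library against 609.6 in the WT host library, 2.03-fold higher (interval 1.84 to 2.25), just past 2-fold, and its reads are not whole in the WT host library. Prdm4 had 781 against 601 (1.45, interval 1.30 to 1.61), Prdm2 1267 against 1778 (0.795), Prdm15 296 against 418 (0.790) and Prdm11 185 against 267 (0.772). Prdm9, which places H3K4 trimethylation at recombination sites in meiosis, had 512 against 517 reads (1.10, interval 0.975 to 1.25). Prdm1 (BLIMP1) was at 35 against 9 reads and Prdm16 at 3 against 10, both under the minimum.

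Levels of different enzymes can be compared only per length, and the deposited FPKM does so by genomic span. Recovered RPM was therefore divided by the merged exon length of protein-coding transcripts in GENCODE M21, which gave a length for all 65 enzymes, under the assumption that the authors counted exon reads. On this scale Prmt1 was highest, at 84.5 in the KO host library and 71.1 in the WT host library, and Setd5 came next, at 61.6 and 53.4. Kdm5a (43.4 and 38.2), Ehmt2 (39.6 and 38.9), Suz12 (33.7 and 42.8) and Kdm1a (32.5 and 41.1) followed by the mean of both, and their order differed between the libraries. The median over the 65 enzymes was 10.1 in the KO host library and 11.2 in the WT host library. Dot1l ranked 21 in the KO host library and 49 in the WT host library, Kmt5a 43 against 17, Smyd5 27 against 11 and Kmt2a 16 against 30, out of 65; these examples were picked after their values were seen.

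**Figure D3:**
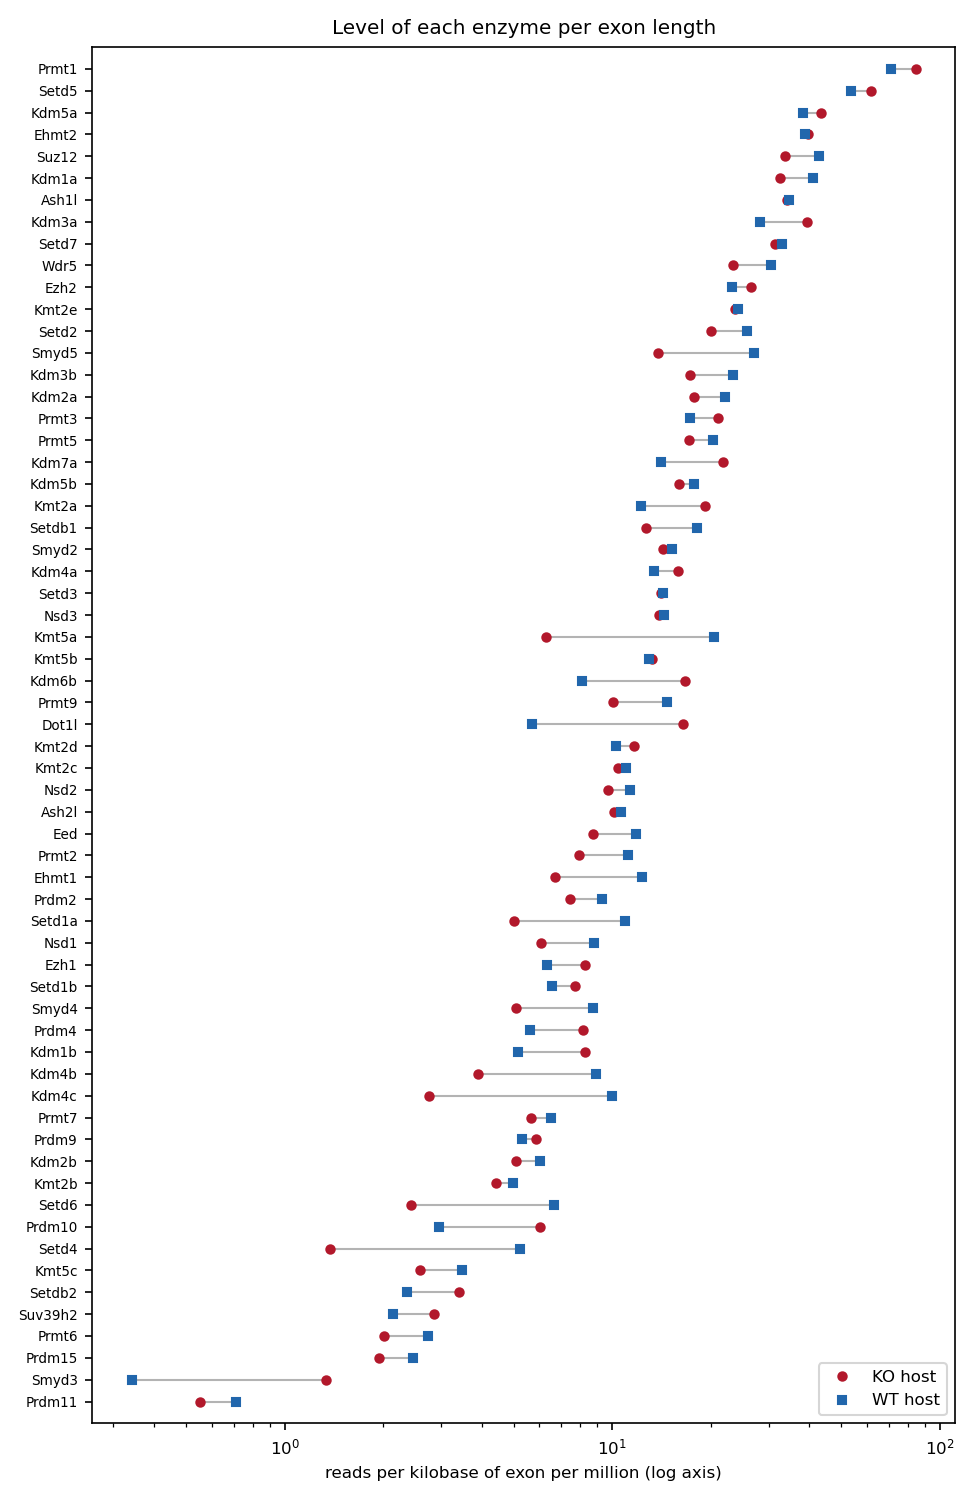
RPM per kilobase of exon (log axis) is shown for each of the 62 enzymes with 100 reads or more in the KO host library (circles) and the WT host library (squares), ordered by the mean. Prmt1 is at the top with 84.5 and 71.1, and the long connecting lines belong to Kmt5a, Dot1l, Kdm6b, Kdm4b, Kdm4c, Setd1a, Setd4, Setd6, Prdm10 and Smyd3.

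Genes that work with these enzymes were described from lists of partners and related proteins, whose counts stand beside 8.4% of all genes 2-fold higher and 11.3% lower. All partner genes past 2-fold except Zmynd8 and Idh2 lie at 100 to 1000 reads, where those shares were 17.5% and 23.4%. Of 7 PRC2 accessory genes 6 lay within 1.5-fold, with Jarid2 at a ratio of 1.21, Mtf2 at 0.795 and Phf19 at 0.707, and Epop had 1 read in the KO host library against 102 in the WT host library. Of 12 COMPASS accessory genes, Pagr1a was 2-fold higher (84.3 against 37.9 reads) and Dpy30, a core subunit of all these complexes, 2-fold lower (54 against 191). Of 16 PRC1 genes with 100 reads or more, 2 were 2-fold higher, L3mbtl2 with 323 against 29 reads and Cbx2 with 121 against 62, and 0 were lower. The 9 HP1 and H3K9 reader genes held none past 2-fold, with Wiz, a partner of Ehmt1 and Ehmt2, at 472 against 890 reads (ratio 0.591) and Trim28 at 3948 against 6259 (0.703). Of 10 LSD1 complex genes, Hmg20b was higher (279 against 154 reads) and Zmynd8 lower (490 against 1326), and Hdac1 had 577 against 1230 reads (0.523).

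Other JmjC proteins had the lowest median of these lists, a log2 read ratio of -0.64 over 8 genes, against -0.063 over all genes. Riox2 had 32.8 reads in the KO host library against 163.4 in the WT host library, Hr 22 against 85, and Phf2 517 against 969, while Jmjd1c had 7531 against 5949. Of 15 genes of methyl donor and 2-oxoglutarate metabolism 1 passed 2-fold: Idh2, which makes 2-oxoglutarate in mitochondria, had 1468 against 3890 reads (ratio 0.421). Ahcy, which removes the methyltransferase product S-adenosylhomocysteine, had 1202 against 2185 (0.613), Mthfd1 1310 against 881 (1.66), and Mat2a, the S-adenosylmethionine synthase of most tissues, 8189 against 8831 (1.03). Of the other histone methyltransferases, Carm1 (PRMT4) was at a ratio of 0.869, Mecom at 0.541 and Setmar at 1.82.

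**Figure D4:**
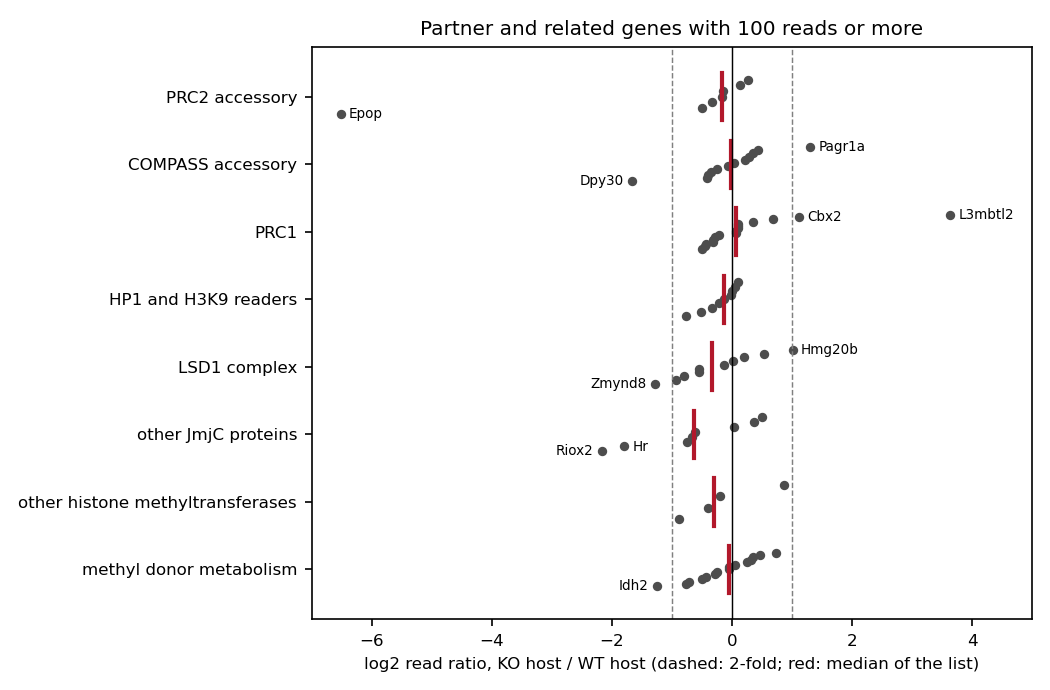
Each point is the log2 read ratio, KO host over WT host, of 1 partner or related gene with 100 reads or more, by list; red bars are list medians, dashed lines mark 2-fold, and genes past 2-fold are named. Medians run from -0.64 for the other JmjC proteins to 0.068 for PRC1.

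Other features of the libraries moved beside these values. The sorted cells carried Vim (67960 reads in the KO host library and 82646 in the WT host library), the mesenchymal intermediate filament, and the epithelial keratins Krt8 (4050 against 3172) and Krt18 (2339 against 1659). Epcam had 151 against 55 reads and Cdh1 201 against 134. Ptprc, which encodes CD45, had 64 against 46 reads. Of the other listed leukocyte markers, Fcer1g had 70 against 31, Tyrobp 23 against 21, Laptm5 45 against 56 and Coro1a 8 against 9. Of 4 T cell markers only Cd8a was listed, with 53 reads in the KO host library against 6.8 in the WT host library, under the minimum of 100. The 3 listed of 4 endothelial markers split, with Cdh5 at 146 against 1, Plvap at 58 against 348 and Pecam1 at 128 against 129 reads. The 4 listed of 5 fibroblast markers summed to 344 RPM in the KO host library and 921 RPM in the WT host library, and the 3 listed of 4 pericyte markers to 83.0 against 387 RPM, with Cspg4 listed at 0 in the KO host library. Most of the fibroblast sum's difference was Col1a1, with 88.1 RPM in the KO host library against 618 RPM in the WT host library. Dcn, with 6.76 against 30.1 RPM, and Serpinf1, with 32.9 against 49.5 RPM, were lower too, while Pdgfra had 216 against 224 RPM. The part of these cells in any enzyme's difference was not tested, and in bulk RNA fewer cells of a type and less RNA per cell cannot be told apart. Mtdh itself had 23130 reads in the KO host library and 28376 in the WT host library (ratio 0.909, interval 0.893 to 0.925), with injected cells wild type for it in both libraries. The 10 enzymes with up to 2783 bases of exon had a median log2 read ratio of -0.47, against -0.058 over the 36 with more than 4655 bases, where all genes of these lengths had -0.084 and -0.053.

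The scale of the difference decided which enzymes stood out. With the deposited log2(FPKM + 1), 2 of the 10 enzymes past 2-fold in reads kept a difference of 1 or more, Dot1l at 1.01 and Kmt5a at -1.02. Setd6 was at -0.99, Kdm6b at 0.87 and Setd1a at -0.76, while Smyd3, at 1.98 in reads, was at 0.021. With 0.1 added to the FPKM 7 of the 10 kept it, and with 5 added none did.

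**Figure D5:**
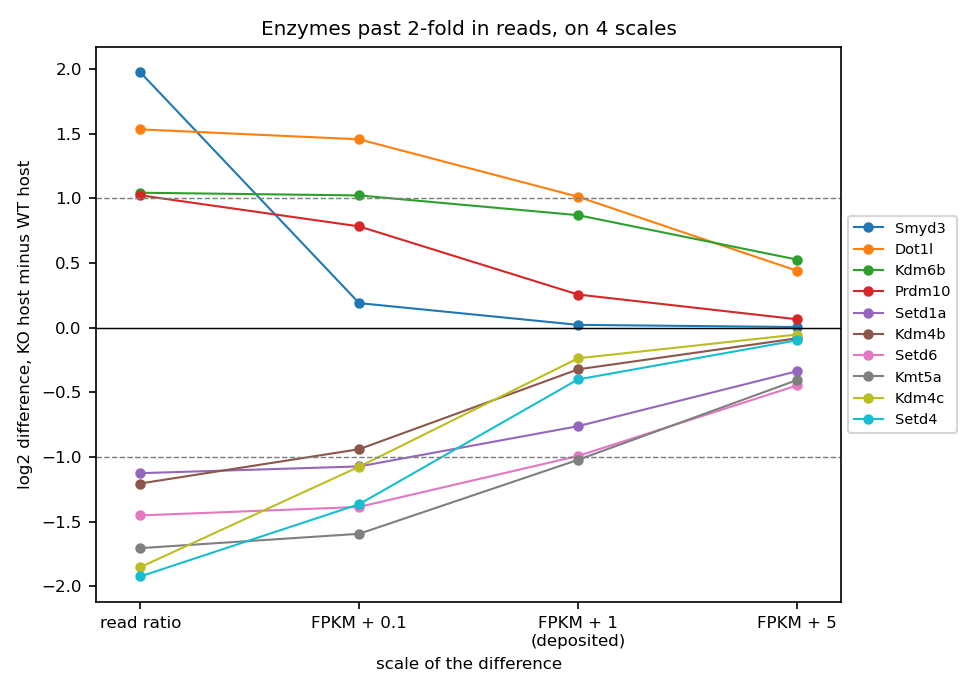
The 10 enzymes past 2-fold in reads are shown on 4 scales: the log2 read ratio and the differences of log2(FPKM + 0.1), of the deposited log2(FPKM + 1) and of log2(FPKM + 5), KO host minus WT host; dashed lines mark a difference of 1. All lines move towards 0 with a larger added constant, and on the deposited scale Dot1l at 1.01 and Kmt5a at -1.02 reach the dashed lines.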

How the data were processed

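RNA-seq of CD45-negative live cells from Py8119 tumours was analysed in 2 libraries, 1 per host genotype. The authors deposited 1 table of log2 values, log2(FPKM + 1), for 12707 protein-coding genes. STAR 2.7.8a, Partek and mm39 are named in the submitters' processing notes; the sources used here do not state strand handling, the treatment of multiply mapped reads, the annotation release or filters. The deposited length column equals stop minus start in 100% of rows, so FPKM used the genomic span, and FPKM times span summed to 1000000 per library.

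Reads were recovered by finding the total at which low values are whole numbers; 83.4% (KO host) and 84.9% (WT host) of values under 1000 reads were whole within 0.1. The step was tested on simulated data. Ratios are of RPM (reads per 1000000) over all listed genes, with Clopper-Pearson intervals of rounded reads (scipy 1.17.1, Python 3.11.15). No p-value was computed.

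Named enzymes are those past 1.5-fold, and in each class the 3 largest ratios and the 2 with most reads; others are named for completeness. The partner genes named are those past 2-fold and, in lists with none past 2-fold, the 2 largest. Others were picked after their values were seen. Some genes short of 2-fold with larger differences than those picked, such as Nnmt, Jmjd6 and Phf21a, are not shown. Members and lists were chosen with earlier results of these data known. Alternatives covered scaling, read minimum, added constant, overlapping genes and whole reads. Promoter sequences are from RefSeq (GRCm38.p6), exon lengths from GENCODE M21; coordinates of the 2 builds were not mixed.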

Additional observations from a re-analysis of the deposited data

Results flagged for a closer look

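Kdm5d, the Y-linked H3K4 demethylase, lies outside the autosomal genes compared here and had more reads in the KO host library, 165.4, than in the WT host library, 32.0 (ratio 5.76, interval 3.92 to 8.68). It was looked at because its signal is above that of the WT host library in data the comparisons did not use. Other Y-linked genes were low in both, with Ddx3y at 22 reads in the KO host library and 8 in the WT host library, Eif2s3y at 13 against 3, and Uty at 27.7 against 47.0. The X-linked Kdm5c had 7789 reads in the KO host library against 7889 in the WT host library, Kdm6a 1579 against 1692 and Suv39h1 530 against 582. The cause was not tested.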

How the results depend on the processing

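The added constant changed the counts. Of enzymes past 2-fold higher, 4 in the reads, there were 1 on the deposited log2(FPKM + 1) scale, 2 with 0.1 added and 0 with 5 added; of those lower, 6 in the reads, there were 1 on the deposited scale and 0 with 5 added. Past 1.5-fold, the 7 higher became 2 on the deposited scale, 0 with 5 added and 4 among enzymes with whole reads, an alternative chosen after seeing the data, and the 9 lower became 4 and 0 on the deposited scale and with 5 added. The median log2 ratio of -0.12 became -0.0748 with 1000 reads or more and -0.0748 with scaling by the median ratio of genes. It became -0.0468 on the deposited scale and -0.0134 with 5 added. The moves with scaling and added constants follow from construction, since the median ratio shifts every gene by the same amount and an added constant shrinks differences. The read minimum left 53 enzymes, and the 9 left out, with 100 to 1000 reads, had a median of -0.37. Scaling by the median ratio, the upper quartile or quantile normalization kept all 10 enzymes past 2-fold. None of 412 recomputed values for 44 named enzymes put an enzyme past 1.5-fold on the other side of 0. Added constants and filters cannot change a sign. The log2 shifts of the median ratio (-0.048) and the upper quartile (-0.0098) were too small to do so. Only quantile normalization could have turned such an enzyme. Read minimums, overlap and whole-read filters removed some of the 10 from the comparison and ended no other call. No paired analysis was possible because each host has 1 library, and for the same reason no replicate could be left out. Depth limits enzymes under 1000 reads most.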
